A study of Homo sapiens with 4 samples.

Results

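The VPS10 domain receptors are a human family of 5 genes, SORT1, SORL1, SORCS1, SORCS2 and SORCS3, and their RNA was examined in LNCaP prostate cancer cells with and without the KDM5 inhibitor CPI-455. They are 5 of the 60675 genes in the count files and were taken for the domain that names the family. SORCS1 was chosen by its measured fold change between the groups, so its difference is given as a description without a test, and the other members were added as its relatives. Of the 5 genes, 4 passed the filter on low counts, and SORCS3 had no fragment in any library.

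Total RNA of LNCaP, a human prostate cancer line that expresses the androgen receptor and was grown from a lymph node metastasis, was sequenced after 72 h in hormone-depleted medium with 1 nM R1881, a synthetic androgen. Group R1881 + vehicle (n = 2) received DMSO and group R1881 + CPI-455 (n = 2) received 50 µM CPI-455, which inhibits the KDM5 demethylases of histone H3 lysine 4. All 4 libraries had androgen, so a response to androgen itself cannot be read from them. The study calls the replicates biological but the labels do not say that they were separate cultures, and p-values then measure only the spread between these libraries of one cell line.

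VPS10 domain receptors are membrane proteins of the Golgi, endosomes and cell surface that carry other proteins between these compartments. Their cytoplasmic tails are read by clathrin adaptors and by retromer, which decide whether a receptor and its cargo go to lysosomes, back to the Golgi or to the surface. They are best known from neurons, where they handle neurotrophins, their receptors and the amyloid precursor protein, and sortilin also acts in lipoprotein secretion and in delivery of lysosomal enzymes.

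The libraries with vehicle held 19623553 and 20690819 counted fragments and those with CPI-455 held 9522920 and 5401588, so that low genes were measured less precisely with CPI-455. Expression is given as normalized CPM, counted fragments scaled to a common library size with TMM, and comparisons between genes use normalized CPM per kb of exon. One fragment was worth 0.0457 to 0.0472 normalized CPM with vehicle and 0.112 to 0.198 with CPI-455. All 12 markers of luminal prostate cells had over 3 fragments in every library, and their summed level was 1047 to 1133 normalized CPM with vehicle and 414 to 469 with CPI-455. With vehicle KLK3 made the largest part of this sum (403 and 357). KLK2, TMPRSS2 and KRT18 were not called (log2 fold change 0.56, -0.66 and -0.43), and the other luminal markers were called lower. The 6 leukocyte and 4 endothelial markers summed to at most 1.60 normalized CPM in any library, the 6 fibroblast markers to 4.48 to 5.48 with vehicle and 10.4 to 10.7 with CPI-455, and the basal markers KRT5 and KRT15 were at 0 in all 4 libraries although the basal list as a whole summed to 373 to 414 with vehicle and 134 to 160 with CPI-455. Nearly all of the basal sum came from DST (366 and 405 with vehicle, 131 and 158 with CPI-455), which was called lower, and most of the fibroblast sum from COL1A1 (4.96 and 4.02 with vehicle, 10.1 and 7.71 with CPI-455), which was called higher. Neuroendocrine markers (7 listed) summed to 190 to 191 with vehicle and 150 to 160 with CPI-455, where NCAM1 was called lower (log2 fold change -1.31) and ENO2, INSM1 and SYP were not called (0.50, 0.75 and 0.69). The nuclear RNA MALAT1 took 0.0884% to 0.114% of fragments with vehicle and 4.95% to 6.49% with CPI-455, and mitochondrially encoded RNA took 1.91% to 2.43% and 0.967% to 1.24%. Scaling without mitochondrial genes and MALAT1 is given in the last section. Beyond that scaling, the part of these shifts in the results that follow was not tested. Fewer cells of a kind and less RNA per cell cannot be told apart in such bulk libraries.

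The regions just upstream of SORCS1, SORT1 and SORL1 are shown because SORCS1 and SORT1 had less RNA with CPI-455 while for SORL1 no difference was detectable. They come from the RefSeq promoter table (GRCh38.p14), end at whichever annotated start lies further upstream, RefSeq's or that of the count files, and run 5′ to 3′ on the gene's strand. Capitals mark the GC box, GGGCGG on either strand, the core sequence read by SP family factors. The SORCS1 region is chr10:107164707-107164956 (minus strand), that of SORT1 chr1:109397952-109398168 (minus strand) and that of SORL1 chr11:121452064-121452202 (plus strand).
SORCS1: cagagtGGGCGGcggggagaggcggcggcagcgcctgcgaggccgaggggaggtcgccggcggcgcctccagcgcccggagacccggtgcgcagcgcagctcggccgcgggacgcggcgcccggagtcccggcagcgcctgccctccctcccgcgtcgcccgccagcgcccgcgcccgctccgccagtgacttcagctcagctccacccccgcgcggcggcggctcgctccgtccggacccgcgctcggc
SORT1: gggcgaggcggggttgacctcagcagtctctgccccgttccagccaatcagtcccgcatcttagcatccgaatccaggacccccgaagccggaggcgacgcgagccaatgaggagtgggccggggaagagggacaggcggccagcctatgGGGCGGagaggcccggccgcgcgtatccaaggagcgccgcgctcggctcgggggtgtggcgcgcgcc
SORL1: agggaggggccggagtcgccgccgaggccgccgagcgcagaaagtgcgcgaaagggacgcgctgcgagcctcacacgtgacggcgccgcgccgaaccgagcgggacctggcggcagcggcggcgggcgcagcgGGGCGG

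The windows before the RefSeq starts were rich in G and C. In the 250 bases before the RefSeq start the GC content was 82.4% for SORCS1, 74.0% for SORT1, 80.4% for SORL1 and 66.0% for the undetected SORCS3, against a median of 58.0% over 35116 promoters. There were 45 CpG dinucleotides before SORCS1, 32 before SORT1, 45 before SORL1 and 27 before SORCS3, and the median promoter had 11. Each of these windows held at least 1 GC box (1, 3, 2 and 1 in the same order), as did 42.6% of all promoters. None held AGAACA, the half-site of the androgen receptor element (both strands searched, in 12.4% of all promoters) or, in consequence, the full element, in which the half-site is followed by 3 bases of any kind and its reverse complement. SORCS2 was not among the promoters used. The windows of SORT1, SORL1 and SORCS3 reach into the gene as annotated for counting. Before both annotated starts SORT1 and SORL1 had 1 GC box each. The 61 bases before both starts of SORCS3 had 37.7% GC, 2 CpG dinucleotides and 0 GC boxes.

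SORT1 encodes sortilin, the founding member, and had the most RNA of the family. It lies on the minus strand of chromosome 1 from 109309568 to 109397951 (ENSG00000134243, 25 exon blocks). Expression of SORT1 was 203.9 and 203.8 normalized CPM with vehicle (4318 and 4462 fragments) and 29.1 and 26.9 with CPI-455 (259 and 136 fragments). The replicates lay close together and the groups were far apart. SORT1 fell 7.25-fold, a log2 fold change (CPI-455 over vehicle) of -2.86 with a standard error of 0.13 (FDR = 5.83e-07 from edgeR's quasi-likelihood test over 17600 genes). A gene was called lower or higher when this FDR was below 0.05 and the change was at least 2-fold. By that definition 21.3% of the genes tested were called lower and 21.0% higher, 42.4% in all, so a call by itself was common. SORT1 ranked 582 of 17600 genes by the size of the fall. Of the 4 members tested, 2 were called lower (SORT1 and, as its choice fixes, SORCS1) and 0 higher by edgeR.

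**Figure D1:**
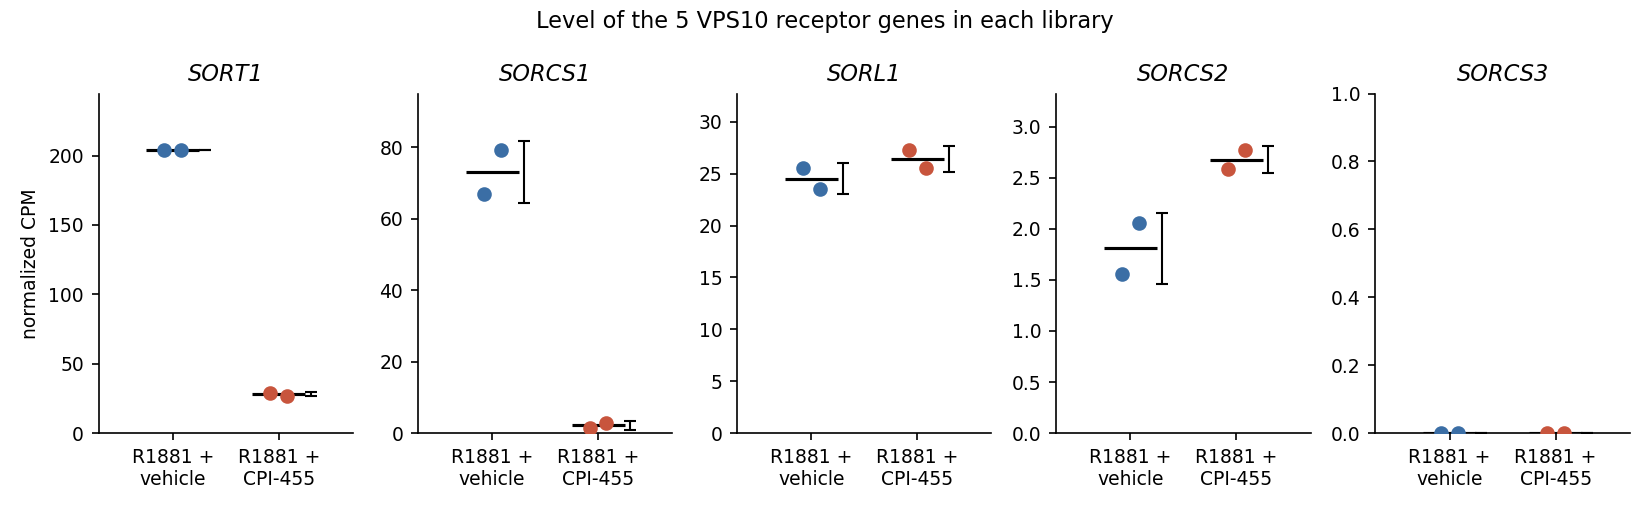
Normalized CPM (vertical axes, from 0, scaled per gene) of the 5 VPS10 receptor genes with R1881 + vehicle (blue) and R1881 + CPI-455 (red). Points are libraries, horizontal lines are means and bars to the right are ± 1 SD (n = 2). SORT1 and SORCS1 were lower in both CPI-455 libraries, SORL1 overlapped between groups, SORCS2 was below 3 in every library and SORCS3 was at 0.

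SORCS1 encodes a receptor studied mostly in neurons, where it sorts the amyloid precursor protein and synaptic proteins. The gene occupies 591 kb on the minus strand of chromosome 10 from 106573663 to 107164534 (ENSG00000108018), with 28 exon blocks that sum to 9.96 kb. Its fragments numbered 1418 and 1735 with vehicle against 12 and 15 with CPI-455. These correspond to 67.0 and 79.3 normalized CPM with vehicle and to 1.35 and 2.97 with CPI-455. With vehicle SORCS1 was above 80.6% of the genes tested, and with CPI-455 it was close to the level of SORCS2. The exact Poisson intervals (95%, counting error only) of the CPI-455 libraries were 0.696 to 2.35 and 1.66 to 4.89 normalized CPM. They overlapped, but the value of each library lay outside the interval of the other. Such overlap does not decide whether these 2 libraries differed by more than counting error. RNA of SORCS1 was 37.1-fold lower with CPI-455 (log2 fold change -5.21, standard error 0.28) and ranked 199 of 17600 genes by the size of the fall. The fold rests on the few CPI-455 fragments, and it was 24.6 without CPI-455 replicate 1 and 54.0 without CPI-455 replicate 2.

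SORL1 encodes SORLA, which pairs the VPS10 domain with modules of the LDL receptor family and steers the amyloid precursor protein away from cleavage. It lies on the plus strand of chromosome 11 from 121452203 to 121633693 (ENSG00000137642), with 52 exon blocks and 19.4 kb of exon, the longest of the family. Expression of SORL1 was 25.6 and 23.5 normalized CPM with vehicle (541 and 514 fragments) and 27.3 and 25.5 with CPI-455 (243 and 129 fragments). The groups overlapped. SORL1 was not called, with a log2 fold change of 0.11, a standard error of 0.17 and FDR = 0.595 by edgeR. Its approximate 95% interval ran from -0.22 to 0.44, so a change of 2-fold in either direction lay outside it. The sign depended on the scaling, with -0.082 for library totals alone and -0.045 without the filter on low counts, settings that moved the median of all genes by -0.19 and -0.37.

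SORCS2, a receptor for proneurotrophins, was near the limit of what these libraries measure. It lies on the plus strand of chromosome 4 from 7192538 to 7742836 (ENSG00000184985). Its levels were 1.56 and 2.06 normalized CPM with vehicle (33 and 45 fragments) and 2.58 and 2.77 with CPI-455 (23 and 14 fragments). Both CPI-455 values lay above both vehicle values, but the counting intervals of the 4 libraries overlapped. SORCS2 was not called, with a log2 fold change of 0.56, a standard error of 0.50 and FDR = 0.356 by edgeR. The approximate 95% interval of -0.42 to 1.54 contained both no change and a 2-fold rise. SORCS3, on the plus strand of chromosome 10 from 104641101 to 105265235 (ENSG00000156395), had 0 fragments in all 4 libraries. The limit of 3 fragments allows up to 0.142 and 0.137 normalized CPM with vehicle and up to 0.337 and 0.593 with CPI-455, for counting error only.

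The order of the family by level differed between the groups only in the place of SORCS1, which was chosen by its fold change. SORT1, SORL1 and SORCS2 kept their order. Per kb of exon, the level with vehicle was 22.3 ± 0.00945 normalized CPM per kb (SD, n = 2) for SORT1, 7.34 ± 0.871 for SORCS1, 1.26 ± 0.0754 for SORL1 and 0.286 ± 0.0556 for SORCS2. With CPI-455 it was 3.05 ± 0.166 for SORT1, 1.36 ± 0.0634 for SORL1, 0.423 ± 0.0212 for SORCS2 and 0.216 ± 0.115 for SORCS1. Neighbours in both orders were separated by more than their SDs, but SORCS2 and SORCS1 with CPI-455 rest on 12 to 23 fragments a library. The counting intervals of these 2 genes per kb overlapped in CPI-455 replicate 2 and not in replicate 1, so their order there is uncertain. Summed over the 5 genes, the family level was 30.5 and 31.7 normalized CPM per kb with vehicle against 5.12 and 4.99 with CPI-455.

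Ratios of members within a library do not depend on the scaling between libraries. SORT1 RNA per kb was 16.9 and 18.4 times that of SORL1 with vehicle against 2.26 and 2.24 times with CPI-455. The ratio was 7.85-fold lower with CPI-455 without overlap between groups. With 2 libraries a group the exact permutation test (two-sided) gives p = 0.333, the smallest it allows. SORCS1 RNA per kb was 5.12 and 6.59 times that of SORL1 with vehicle against 0.0964 and 0.227 times with CPI-455. Relative to SORT1 it was 0.302 and 0.357 with vehicle against 0.0426 and 0.101 with CPI-455. SORCS1 was thus lower than its abundant relative in every library and by a larger factor with CPI-455. As shares of the family per kb, SORCS1 made up 22.0% and 25.1% with vehicle against 2.64% and 5.97% with CPI-455, and SORL1 made up 4.30% and 3.80% with vehicle against 27.4% and 26.3% with CPI-455.

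**Figure D2:**
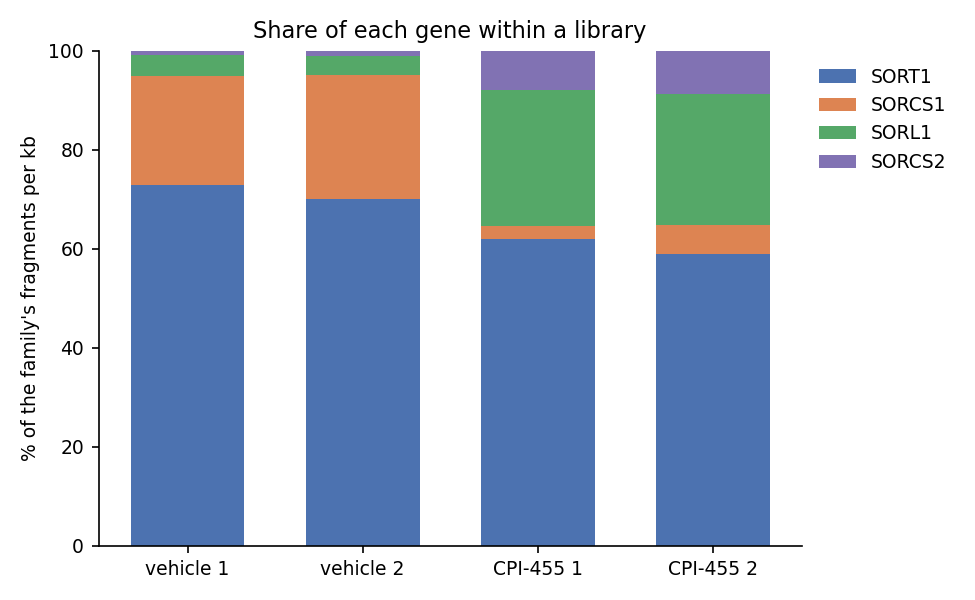
Share of each gene among the VPS10 receptor fragments per kb of exon (vertical axis, %) in each of the 4 libraries (horizontal axis); SORCS3 is at 0. SORT1 made up 58.9% to 72.9% of every library, SORCS1 (orange) 22.0% to 25.1% with vehicle against 2.64% to 5.97% with CPI-455, and SORL1 and SORCS2 had larger shares with CPI-455.

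The members' counts did not mix with those of other genes on the map used for counting. None of their exon bases was shared with an exon of another gene. The antisense genes SORL1-AS1 and SORCS3-AS1, which overlap their partners, had 0 fragments in all libraries.

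Genes whose products work with the receptors were examined as 97 partner genes in 6 lists by role, of which 93 were tested. Of these, 35 were called lower, 15 higher and 43 were not called. That is 37.6% lower and 16.1% higher, beside 24.4% lower and 15.6% higher among the 13813 protein-coding genes tested. After removal of an exon length trend from the counts the 93 partner genes split into 27 lower and 19 higher. Of all 17600 genes, non-coding genes included, 3166 were called lower and 3656 higher under that setting, against 3756 and 3698 without it. The shares among protein-coding genes alone were not counted under that setting.

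Most ligands and cargo genes fell. Of 20 listed genes 16 were tested, and 12 of these (75%) were called lower and 2 (12.5%) higher. Their median log2 fold change was -1.55, beside -0.21 for protein-coding genes. The progranulin gene GRN, whose product sortilin takes to lysosomes, had 96.9 and 103 normalized CPM with vehicle against 36.3 and 20.2 with CPI-455 (log2 fold change -1.78, FDR = 1.01e-04 by edgeR). APP, the amyloid precursor, fell from 586 and 633 normalized CPM to 209 and 206 (log2 fold change -1.55, FDR = 3.40e-06 by edgeR). The platelet-derived growth factor gene PDGFB had 26 and 33 fragments with vehicle and none with CPI-455, at least 2.94-fold lower against the mean limit of 3 fragments in each CPI-455 library. The trophic factor genes GDNF and CNTF were also called lower at low counts. GDNF had 41 and 43 fragments with vehicle against 0 and 1 with CPI-455. CNTF had 56 and 81 against 2 and 0, so that too few fragments remained to size these changes. The neurotrophin gene NTF4 was called higher at 3 and 7 fragments with vehicle against 10 and 5 with CPI-455 (FDR = 0.0417 by edgeR), a call that held in only 6 of the 15 alternative settings that gave a value. The other gene of this list called higher was APOE (log2 fold change 1.78, FDR = 0.00517 by edgeR). APOE had 34 and 42 fragments with vehicle against 46 and 36 in the smaller CPI-455 libraries.

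Partner receptors were split between directions. Of 14 genes, all tested, 5 (35.7%) were called lower and 5 (35.7%) higher, beside the shares among protein-coding genes given above. The neurotrophin co-receptor NGFR, which forms a complex with sortilin, rose from 1.65 and 1.60 normalized CPM to 13.5 and 8.11 (log2 fold change 2.75, FDR = 2.00e-04 by edgeR). The insulin receptor gene INSR fell from 149 and 152 normalized CPM to 56.2 and 54.8 (log2 fold change -1.44, FDR = 8.39e-06 by edgeR), and was not called with the trend on genomic span removed. LIFR, a cytokine receptor subunit, had the largest fall of the list, from 73.9 and 68.1 normalized CPM to 11.4 and 8.51 (log2 fold change -2.80, FDR = 2.54e-06 by edgeR).

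Among proteases that mature, shed or cleave VPS10 receptors and the amyloid precursor, 8 of 13 (61.5%) were called lower and 0 higher by edgeR's quasi-likelihood test. Among protein-coding genes the shares were 24.4% and 15.6%. The convertase gene FURIN fell from 99.4 and 91.5 normalized CPM to 35.1 and 19.8 (log2 fold change -1.76, FDR = 1.04e-04 by edgeR). The sheddase gene ADAM10 fell from 98.2 and 94.9 to 20.4 and 18.6 normalized CPM (log2 fold change -2.30, FDR = 2.03e-06 by edgeR). APH1B, a gamma-secretase subunit gene, had the largest fall, with 158 and 198 fragments with vehicle against 6 and 0 with CPI-455 (log2 fold change -4.27, FDR = 2.64e-04 by edgeR). The size rests on these few fragments, at -3.60 without CPI-455 replicate 2, and without CPI-455 replicate 1 only the library at 0 remained, which gives no size. The highest value of the list was that of PCSK7, at 0.95, under the 2-fold limit.

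Among 17 coat adaptor genes 3 (17.6%) were called lower and 2 (11.8%) higher, with a median of -0.25 on the log2 scale, beside the shares among protein-coding genes given above. GGA1 and GGA3, which encode Golgi adaptors that recognise the sortilin tail, both rose, GGA1 from 74.0 and 73.3 normalized CPM to 248 and 212 (log2 fold change 1.65, FDR = 4.96e-06 by edgeR). GGA3 had a log2 fold change of 1.67 (FDR = 9.35e-06 by edgeR), the largest rise among the adaptors. Their relative GGA2 had 0.21 and was not called. The clathrin heavy chain gene CLTC had the largest fall of the list, from 303 and 351 normalized CPM to 85.5 and 90.8 (log2 fold change -1.89, FDR = 2.54e-06 by edgeR).

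Of 23 retromer, sorting nexin and WASH complex genes 4 (17.4%) were called lower and 3 (13.0%) higher. Among protein-coding genes the shares were 24.4% and 15.6%, both above those of this list. VPS35, the core subunit of retromer, fell from 162 and 171 normalized CPM to 66.5 and 88.8 (log2 fold change -1.11, FDR = 1.59e-04 by edgeR). Its value lay near the 2-fold limit and it was not called in 5 of the 16 alternative settings, one of them leaving out CPI-455 replicate 1. WASHC5 had the largest fall (log2 fold change -1.58, FDR = 7.69e-05 by edgeR) and WASHC1 the largest rise (2.34, FDR = 3.48e-06 by edgeR), with the level of WASHC1 uncertain because near-identical copies of it exist and fragments that match several places were not counted. Of 10 other sorting receptors 3 (30%) were called lower and 3 (30%) higher, beside the same shares among protein-coding genes. IGF2R, the larger mannose 6-phosphate receptor that like sortilin delivers lysosomal enzymes, fell from 274 and 281 normalized CPM to 97.7 and 66.9 (log2 fold change -1.74, FDR = 1.99e-05 by edgeR). The smaller such receptor, M6PR, had a log2 fold change of -0.92 and was not called. SCARB2, the lysosomal receptor for glucocerebrosidase, had the largest fall (-1.96, FDR = 7.26e-06 by edgeR) and SLC2A4, the glucose transporter of sortilin-containing vesicles, the largest rise (2.62, FDR = 0.00273 by edgeR), at no more than 7.63 normalized CPM. Without CPI-455 replicate 1 the SLC2A4 value was 1.93.

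**Figure D3:**
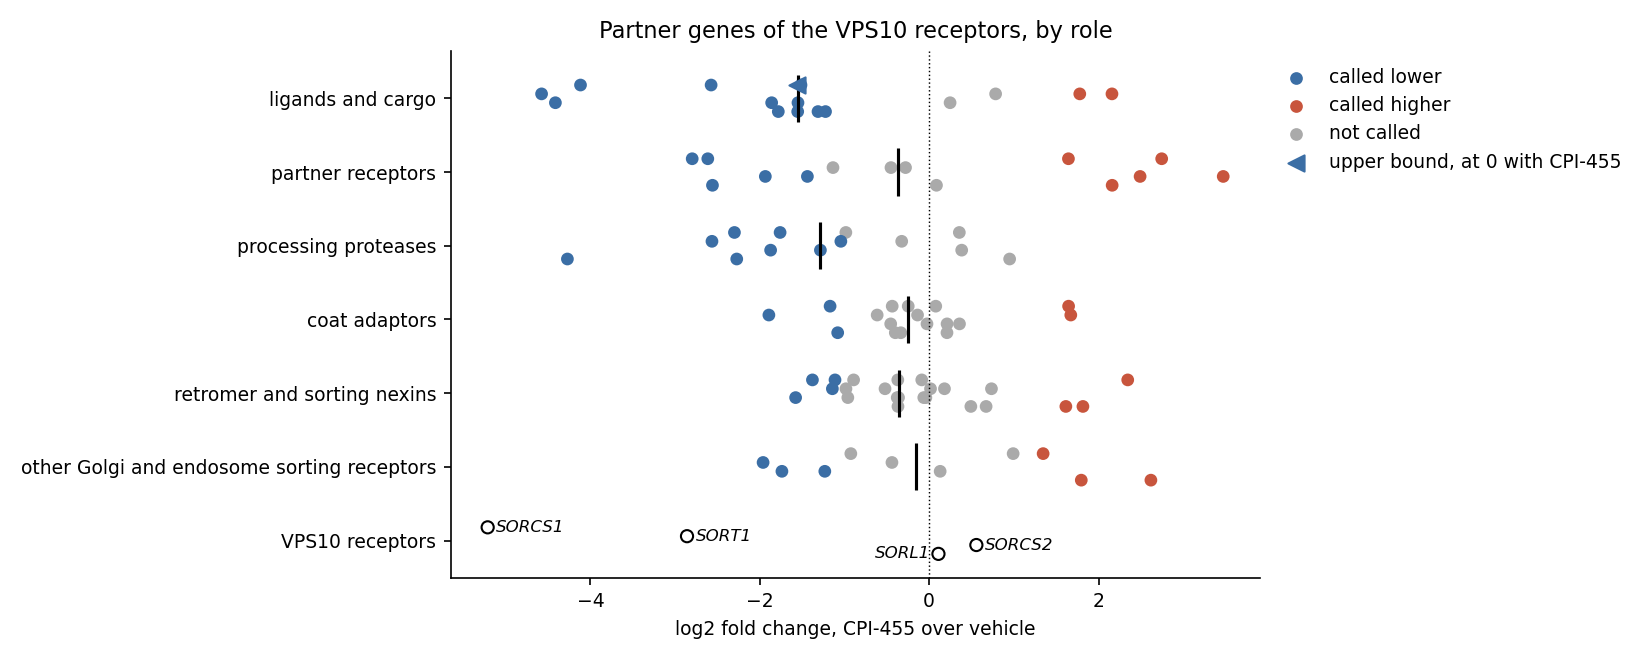
Log2 fold change (CPI-455 over vehicle, horizontal axis) of the tested partner genes by role, with blue for called lower, red for called higher, grey for not called, black lines for list medians and open circles for the VPS10 receptors. The triangle is the bound for PDGFB, at 0 with CPI-455. Ligands and processing proteases had medians of -1.55 and -1.28, and the other lists lay between -0.36 and -0.15.

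The 3 SORCS genes span 550 to 624 kb each, SORL1 181 kb and SORT1 88.4 kb, so genomic span was compared with the change. Among protein-coding genes tested, 19.5% were called lower at spans under 10 kb, 23.2% at 10 to 50 kb, 28.7% at 50 to 200 kb, 27.3% at 200 to 500 kb and 23.0% at over 500 kb. The medians of the log2 fold change in the same classes were 0.18, -0.14, -0.46, -0.42 and -0.21. Of the 217 tested protein-coding genes over 500 kb SORCS1 ranked 3 by the size of the fall, a place that its choice by fold change favours. SORCS2, of nearly the same span, was at the upper quartile of that class with 0.56. With a smooth trend on genomic span removed from each library, the log2 fold change was -4.89 for SORCS1, -2.44 for SORT1 and 0.63 for SORL1 (for SORL1 FDR = 0.0113 by edgeR, under the 2-fold limit).

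**Figure D4:**
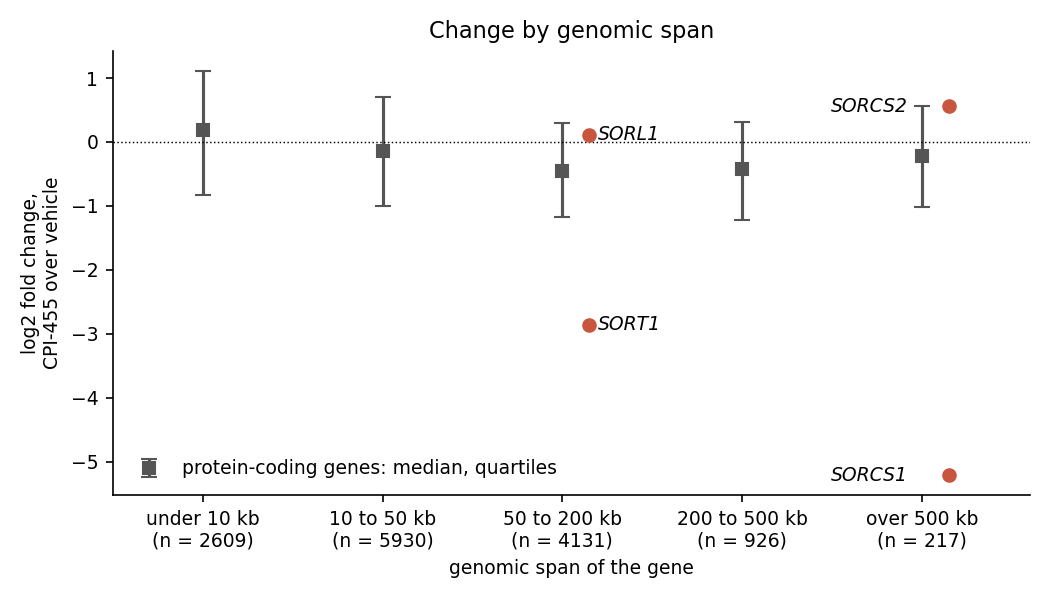
Log2 fold change (CPI-455 over vehicle, vertical axis) by genomic span (horizontal axis) for tested protein-coding genes, as medians (squares) with the interquartile range (bars), and for the 4 tested VPS10 receptors (red). SORT1 and SORCS1 lie far below the quartiles of their classes at -2.86 and -5.21, while SORL1 and SORCS2 do not. SORCS1 was chosen by its fold change.

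Genes beside the members were compared with them. SORCS1 and SORCS3 are neighbours, 1.31 Mb apart, and SORCS1 is the nearest tested gene on that side of SORCS3. The nearest tested genes beside SORCS1 were CFAP58, 2119 kb away and not called at 26, 30, 9 and 1 fragments, and XPNPEP1, 2700 kb away, with a log2 fold change of -0.62 and not called. PSMA5, a proteasome gene whose 3′ end lies 1.08 kb upstream of SORT1, was not called (log2 fold change 0.59). PSRC1, 26.4 kb downstream of SORT1, was called higher with 461 and 461 fragments with vehicle against 1032 and 644 with CPI-455 (log2 fold change 2.50, FDR = 9.66e-07 by edgeR), opposite to SORT1. Beside SORL1, SC5D had a log2 fold change of 0.22 and was not called, and UBASH3B, 1022 kb away, fell with -2.01 (FDR = 2.80e-04 by edgeR). LINC02447 and AFAP1, on either side of SORCS2, were not called (-1.44 and -0.33).

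The profile of SORCS1 over the 4 libraries was most like that of C1orf116, an androgen-regulated gene of epithelial cells. Likeness was the root mean square distance of log2 normalized CPM (pseudocount 0.5) after centring each gene, over the 11162 genes tested that had a symbol and averaged at least 3 in log2 CPM. C1orf116 was at 0.139, with 582 and 601 fragments with vehicle against 3 and 5 with CPI-455. The next were MT-ND1 at 0.330, PDIK1L at 0.336, MT-CYB at 0.379 and MT-ND3 at 0.420, of which the 3 MT genes are encoded in the mitochondrial genome. With 4 libraries in 2 groups the measure mostly reflects the size of the fall. These genes span 0.346 to 14.4 kb, far less than SORCS1.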

How the data were processed

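RNA-seq was analysed for 4 LNCaP libraries, 2 with R1881 and vehicle and 2 with R1881 and CPI-455, grouped by their labels. The authors trimmed reads with TrimGalore, aligned them to GRCh38 with STAR and deposited raw fragment counts per gene from featureCounts v1.5.0-p1 on Ensembl release 83, without normalization. Counting ignored strand and left out fragments that aligned to several places or fell on several genes. The labels and the methods differ on the DMSO concentration of the vehicle. The files' GRCh38 coordinates are given. Symbols from GENCODE 44 were found for 56558 of 60675 genes.

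Counts were scaled by TMM, filtered with filterByExpr (minimum 10) and compared with the quasi-likelihood test of edgeR 4.0.16 (R 4.3.3), without covariates. FDR is Benjamini-Hochberg over 17600 genes. Standard errors were derived from the F statistic. CPM are means ± SD over libraries.

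The members, partner lists and markers were chosen with earlier results of these data known. Named partner genes were the largest called fall and rise of each list and 10 genes set by name. PCSK7, GGA2, GDNF, CNTF, APOE, KRT5, KRT15, KRT18, DST, COL1A1, NCAM1, ENO2, INSM1, SYP, KLK2, KLK3 and TMPRSS2 were named after their values were seen. One gene that the rule selects is not reported here. For likeness the 5 nearest genes were named, and for position the nearest tested gene on either side. Alternatives were other scalings, filters, DESeq2 1.42.0, a likelihood-ratio test, a replicate block, length and span trends (mgcv 1.9.3) and leaving out libraries. Removal of a joint trend on exon length and GC content was chosen after seeing the data. Splicing was not analysed here.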

Additional observations from a re-analysis of the deposited data

How the results depend on the processing

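Of the 16 alternative settings, none changed the number of VPS10 receptors called lower, which was 2 in each. SORCS1 is among these 2 as its choice fixes, so only the call of SORT1 was open. The log2 fold change of SORT1 lay between -3.05 (library totals) and -2.40 (exon length and GC trend removed), that of SORCS1 between -5.76 and -4.62 and that of SORCS2 between 0.37 and 0.90, never called. SORL1 was not called in any, and changed sign to -0.082 with library totals and -0.045 with no filter. Relative to the median of all genes it was 0.15 both in the reported fit and with library totals. Upper-quartile scaling moved that median by 0.17. TMM without mitochondrial genes and MALAT1 moved it by -0.0012 and left SORT1 at -2.86 and SORCS1 at -5.21. All genes called numbered 7454 and between 5645 and 8170 in the alternatives, partner genes 27 to 40 lower and 10 to 19 higher. Genes spanning at least 200 kb were called lower in 305 cases. These were 25.9% of the genes of 200 to 500 kb and 22.2% of those over 500 kb, beside 21.3% of all genes. With the exon length trend removed 199 long genes were called lower, beside 3166 of all genes where the reported fit had 3756. Removing the span trend left 180 beside 3298, and removing the length and GC trend 193 beside 3170. The cause of the lower numbers of long genes was not tested. Fits without one library assume that the lone library varies like the other group, and gave 238 to 352. Replicate numbers are shared by the groups, but same-numbered libraries did not deviate together (correlation 0.04 across genes). With the replicate block 7167 genes were called in place of 7454, SORT1 was at -2.86, and the same 2 receptors were called. Depth limits SORCS2, SORCS3 and the CPI-455 level of SORCS1, which rest on 0 to 45 fragments a library.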
